A study of Mus musculus with 6 samples.

Results

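The Pax genes encode transcription factors that bind DNA through a paired domain, and the mouse has Pax1 to Pax9. All 9 were matched by symbol to RefSeq gene coordinates (GRCm38, which underlies mm10), out of 21887 protein-coding genes placed on the autosomes, X and Y. They lie on 6 chromosomes. What was measured is chromatin accessibility by ATAC-seq, which tags open DNA with adapters carried by a transposase. The cells were mouse embryonic fibroblasts, given as line A or C2, immortalised with c-myc. The series has 3 groups of 2 samples each, namely wild-type cells, Ezh2 -/- cells, and Ezh2 -/- cells carrying a retroviral pMSCV-Ezh2 as rescue, so c-myc is shared by all of them. Ezh2 is the histone H3 lysine 27 methyltransferase of Polycomb repressive complex 2. All values below are from a single deposited list of accessible intervals, made from the Ezh2 -/- cells and named as line C2. The other groups were not analysed here, so nothing below compares genotypes. The list gives no values per replicate, and no replicate error can be stated. Whether it joins both Ezh2 -/- samples is not given. An interval lay within 1 kb of an end of Ezh2 itself (total signal 40464, maximum 61). The deleted part of that gene is not given, so the list does not check the genotype.

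Pax proteins fall into subgroups by their domains. Pax1 and Pax9 have a paired domain and no homeodomain and act in the sclerotome, teeth and thymus. Pax2, Pax5 and Pax8 keep a partial homeodomain and act in kidney, midbrain, B cells and thyroid. Pax3 and Pax7 have a full homeodomain and act in neural crest and muscle progenitors, and Pax4 and Pax6 act in endocrine pancreas and, for Pax6, the eye. Most Pax genes are textbook targets of Polycomb repression, with CpG-rich promoters that carry trimethylated H3 lysine 27 in cells that do not express them. They are known for expression in restricted embryonic lineages, not for a general role in cultured fibroblasts.

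The start sites themselves are shown first, because the results turn on which of them lay under an interval. RefSeq start sites were found for 7 Pax genes, 10 sites in all, and not for Pax3 and Pax4. The 250 bases before 5 of these sites are given 5′ to 3′ on the strand of the gene, from RefSeq on GRCm38.p6, with each CpG dinucleotide in capitals. Pax2 is shown with its 3 sites, of which the second and the third lay under an interval and the first did not. The second site of Pax6 and the site of Pax8 have the highest and the lowest CpG ratio of the 10, and neither lay under an interval.
Pax2 first site, chr19:44746351-44746600, plus strand: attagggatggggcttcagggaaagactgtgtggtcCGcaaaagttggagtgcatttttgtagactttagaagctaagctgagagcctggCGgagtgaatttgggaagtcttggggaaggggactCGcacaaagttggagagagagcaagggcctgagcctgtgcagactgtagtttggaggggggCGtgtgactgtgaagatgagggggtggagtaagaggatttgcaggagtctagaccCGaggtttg
Pax2 second site, chr19:44755502-44755751, plus strand: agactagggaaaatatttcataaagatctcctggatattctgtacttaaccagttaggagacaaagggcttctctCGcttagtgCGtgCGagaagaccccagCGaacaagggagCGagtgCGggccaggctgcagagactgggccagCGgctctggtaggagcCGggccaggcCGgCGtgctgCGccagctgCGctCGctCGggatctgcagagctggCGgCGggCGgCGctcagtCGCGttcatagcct
Pax2 most downstream site, chr19:44756656-44756905, plus strand: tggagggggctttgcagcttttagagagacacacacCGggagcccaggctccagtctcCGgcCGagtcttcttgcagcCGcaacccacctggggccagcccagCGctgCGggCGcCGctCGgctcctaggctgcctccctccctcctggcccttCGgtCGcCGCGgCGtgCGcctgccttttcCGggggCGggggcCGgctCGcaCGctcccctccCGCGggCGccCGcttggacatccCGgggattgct
Pax6 second site, chr2:105682213-105682462, plus strand: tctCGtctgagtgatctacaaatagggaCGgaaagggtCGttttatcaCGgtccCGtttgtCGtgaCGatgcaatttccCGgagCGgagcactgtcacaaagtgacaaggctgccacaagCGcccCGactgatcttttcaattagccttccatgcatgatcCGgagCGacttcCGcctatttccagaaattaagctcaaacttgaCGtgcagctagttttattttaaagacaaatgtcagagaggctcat
Pax8 site, chr2:24475600-24475849, minus strand: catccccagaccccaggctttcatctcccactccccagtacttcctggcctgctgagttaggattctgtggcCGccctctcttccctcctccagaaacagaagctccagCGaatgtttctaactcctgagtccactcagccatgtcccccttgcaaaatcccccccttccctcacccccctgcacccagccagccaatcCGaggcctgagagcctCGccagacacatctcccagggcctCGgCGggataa
These stretches hold 5, 20 and 25 CpG dinucleotides at the first, the second and the third site of Pax2, 15 at the second site of Pax6 and 6 at the site of Pax8.

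Pax2 was the member with an interval over start sites, and Pax1 the member with intervals at its gene ends, the upstream end included. Of the 7 Pax genes with a RefSeq start site, 1 had an interval over a site, against 45.3% of 17492 coding genes with such a site. Of all 9 Pax genes, 1 had an interval within 1 kb of either end of the gene, against 47.4% of all coding genes. An interval anywhere over the gene was found at 5 of 9, Pax1, Pax2, Pax3, Pax5 and Pax8, against 52.8%. An interval over the gene or up to 100 kb to either side was found at 6 of 9, against 77% of all coding genes. The ends and start sites of the Pax genes were thus covered less often than the share over all genes, while the gene bodies were covered at close to that share. These are counts in 1 list, with no test. Parts of some called regions are absent from the list, so the lack of an interval does not mean that no region was called.

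**Figure D1:**
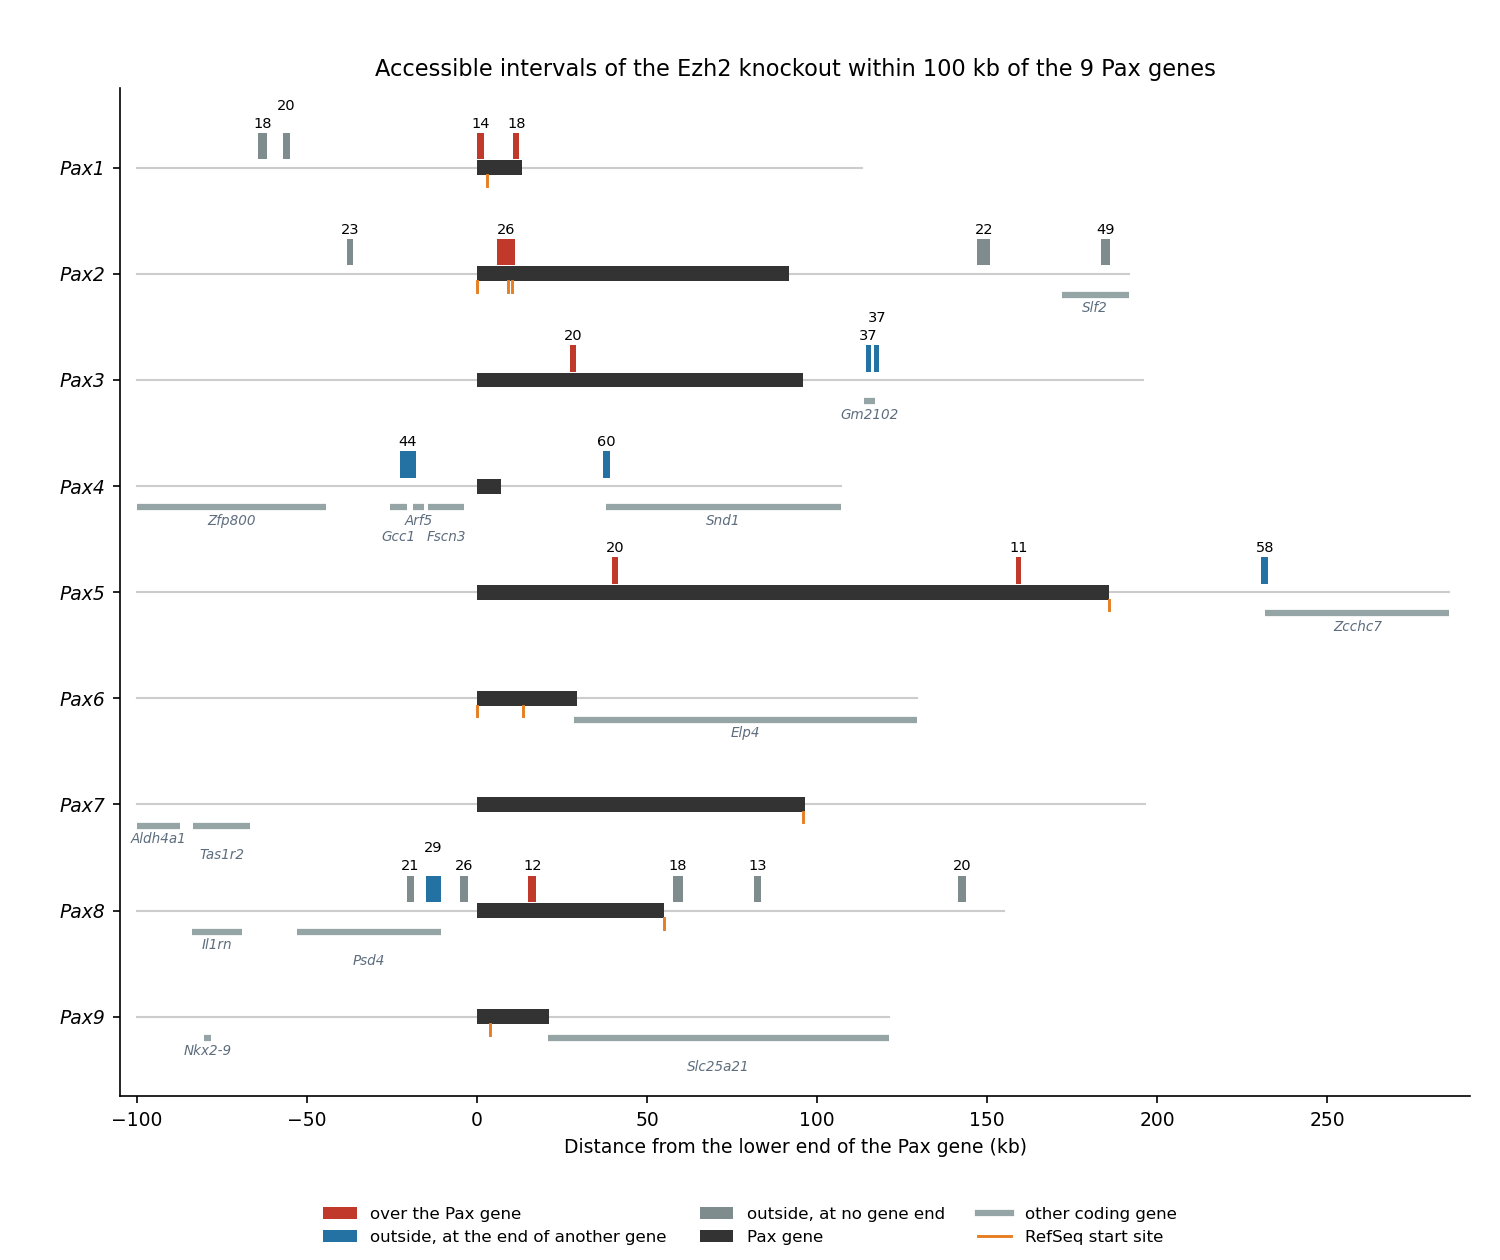
Intervals of the Ezh2 -/- list around the 9 Pax genes, by distance in kb from the lower end of each gene. The number above each interval is the maximum signal of its called region. Intervals over Pax genes (red) carry maxima of 11 to 26, those at ends of other genes (blue) 29 to 60, and Pax6, Pax7 and Pax9 have none within 100 kb.

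In the list as a whole, coding genes of 50 to 200 kb had an interval over them more often than those under 50 kb. Of the 5 members of 50 to 200 kb, Pax2, Pax3, Pax5, Pax7 and Pax8, an interval lay over the gene in 4, against 68.5% of 3955 coding genes of that length. Of the 4 members under 50 kb it lay over 1, Pax1, against 48.6% of 16942. By subgroup an interval lay over all 3 of Pax2, Pax5 and Pax8, over Pax3 but not Pax7, over Pax1 but not Pax9, and over neither Pax4 nor Pax6.

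Pax2, needed for the kidney and the optic nerve, held the interval of highest total signal among those within 100 kb of a Pax gene. The gene runs from 44746601 to 44838269 on chromosome 19 (91.7 kb). Its interval, chr19:44752478-44757654, was 5177 bp wide and had a total signal (area under the coverage, in the authors' unit) of 107981. That total exceeded 96.4% of the 19215 called regions of the list. Its maximum signal (peak height of that coverage) was 26, which exceeded 47.1% of them. Pax2 was thus high in summed signal and near the list median in height. The interval began 5.88 kb inside the lower end of the gene and covered the second and the third of its start sites, at 44755752 and 44756906. The first start site, at 44746601, lay 5.88 kb outside it, which is why Pax2 does not count among genes with an interval at a gene end. Beside Pax2, intervals lay 36.4 kb below (total signal 16387, maximum 23) and 55.4 kb above the gene (60235 and 22), both at no coding gene. The fourth, 91.9 kb above, lay inside Slf2, which encodes a DNA repair factor (32664 and 49).

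Pax5, the commitment factor of B cells, and Pax8, a factor of thyroid follicular and kidney cells, had intervals inside the gene but none at the start site. Pax5 (44524748 to 44710694 on chromosome 4, minus strand) is the longest member at 186 kb. Its intervals lay at 44564463 to 44566119, where total and maximum signal were 50049 and 20, and at 44683154 to 44684634, where they were 20822 and 11. Both intervals hold only part of the stretch of maximum signal, and both totals exceed the width times the maximum, so the values are those of wider called regions. Counting only intervals that hold the whole stretch of maximum signal, Pax5 dropped out and 4 of 9 members had one over the gene, against 50.4% of all coding genes. The maximum of 11 was the lowest of any interval within 100 kb of a Pax gene and exceeded 0.437% of called regions. The nearer of these lay 26.1 kb inside the gene from its start site. The third interval near Pax5 lay 44.7 kb beyond its start, over the start site of Zcchc7, a zinc knuckle gene (39861 and 58).

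Pax8 (24420551 to 24475599 on chromosome 2, minus strand) had 7 intervals within 100 kb, the most of any member; 72.8% of coding genes had fewer. One lay over the gene, 15.1 kb from its lower end (24435641 to 24437895, total signal 19888, maximum 12). Intervals flanked the gene closely, 2.71 kb below it (24536 and 26) and 2.62 kb beyond its start site (21669 and 18). Further below, Psd4, which encodes an exchange factor for ARF GTPases, held an interval at its end (65754 and 29) and one inside the gene (20640 and 21). Above the gene, intervals at 26.5 kb (17128 and 13) and 86.4 kb (58129 and 20) touched no coding gene. Both were pieces that did not include the maximum of their called region. The maxima at the Pax8 locus lay between 12 and 29, with that of 29 at the end of Psd4 above the list median of 27 and the other 6 under it, and the start site of Pax8 was not under an interval.

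Pax1, a factor of the sclerotome, from which vertebrae form, had an interval at each end. The gene runs from 147361930 to 147375049 on chromosome 2 (plus strand). The interval at the lower end, 147361889 to 147363898, summed to 39500 with a peak height of 14, and that height exceeded 7.53% of called regions. Its total exceeds its width times its maximum, so the called region was wider. The interval covered the first base of the gene, which on the plus strand is its upstream end. It ended 1096 bp before the only RefSeq start site found for Pax1, at 147364994 inside the gene. It so fell just outside the 1 kb window of that site. Pax1 thus counts as uncovered at the start site used here, though its upstream end was covered. The called region was at least 2822 bp wide, against 2010 bp deposited. Whether it reached the start site or its 1 kb window cannot be told. The interval at the upper end, 147372620 to 147374276, summed to 15396 with a height of 18. That total was close to the lowest in the list, 15316. Together they covered 27.6% of the gene, against 5.65% of Pax2 and between 1.69% and 4.1% of Pax3, Pax5 and Pax8. Another 2 intervals lay 61.7 kb (25837 and 18) and 55.1 kb (31043 and 20) below the gene, on the side of its neighbour Nkx2-2, a homeobox gene of the ventral neural tube.

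Pax3, a factor of neural crest and of migrating muscle progenitors, had 1 interval inside the gene, which spans 78101267 to 78197136 on chromosome 1. It lay 27.4 kb from the lower end (78128656 to 78130453; total 22387, maximum 20). The other 2 intervals near it, 18.5 and 21.0 kb above, are pieces of 1 called region (29014 and 37) at the predicted gene Gm2102. Pax7, the closest relative of Pax3 and a marker of muscle satellite cells, spans 139737059 to 139833530 on chromosome 4. It had no interval within 100 kb. The nearest lay 112.9 kb below and 866.9 kb above.

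Pax4 and Pax6 had no interval over the gene, and neither did Pax9. Pax4, a factor of pancreatic beta and delta cells, is the shortest member at 7.01 kb (28442334 to 28449340 on chromosome 6). Its flanks held 2 intervals, both over start sites of other genes. One lay 18.1 kb below, over those of Gcc1, a golgin, and Arf5, a small GTPase (57137 and 44). The other lay 30.1 kb above, over that of Snd1, a Tudor-domain nuclease (35341 and 60). Pax6, the master regulator of eye development, spans 105668896 to 105698410 on chromosome 2, and its distal enhancers are known to lie in introns of Elp4, an Elongator gene that overlaps its upper end. Neither Pax6 nor Elp4 held an interval. The nearest intervals lay 268.4 kb below, at the end of Rcn1, and 4219 kb above. Pax9, a factor of teeth and palate, spans 56691693 to 56712824 on chromosome 12, and its nearest intervals lay 854.6 kb below and 192.2 kb above, the latter inside Slc25a21, a mitochondrial carrier gene that overlaps its upper end. Its homeobox neighbour Nkx2-9 had none either.

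The nearest coding genes on either side of the members, 18 in all, had an interval within 1 kb of an end in 8. These were Nkx2-2 below Pax1, Hif1an below Pax2, Gm2102 above Pax3, Snd1 above Pax4, Zcchc7 above Pax5, Rcn1 below Pax6, Psd4 below Pax8 and Prps1l3 above Pax9. The 10 without one were Foxa2, Slf2, Epha4, Fscn3, Melk, Immp1l, Tas1r2, Klhdc7a, Cacna1b and Nkx2-9. At 8 of 18 the share of neighbours was close to the 47.4% of all coding genes, and Pax7 was the member with none at either neighbour.

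Intervals over Pax genes had low maximum signals. The 7 intervals over a Pax gene had maximum signals of 11 to 26 with a median of 18, and all 7 were under the median of 27 over all called regions. The 5 called regions at ends of other genes within 100 kb had maxima of 29 to 60 with a median of 44. Farther off the ranges overlapped: the interval at the end of Rcn1, the neighbour of Pax6, had a maximum of 22, under the 26 of the Pax2 interval. Called regions of the whole list that lay inside genes away from any gene end had a median maximum of 21, and those at gene ends 36. In total signal the 7 spread from 15396 to 107981 with a median of 22387, against 26178.5 for regions inside genes in the whole list, and 4 of 7 were under the list median of 29082. Of the 7, the 2 at gene ends, both of Pax1, had maxima of 14 and 18, under the 36 of gene ends in the whole list. The other 5, inside genes, had maxima of 11 to 26, and 4 of them were under the 21 of regions inside genes, with Pax2, whose interval covers start sites, above it. The 10 intervals outside Pax genes and at no gene end had a median maximum of 20.5.

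**Figure D2:**
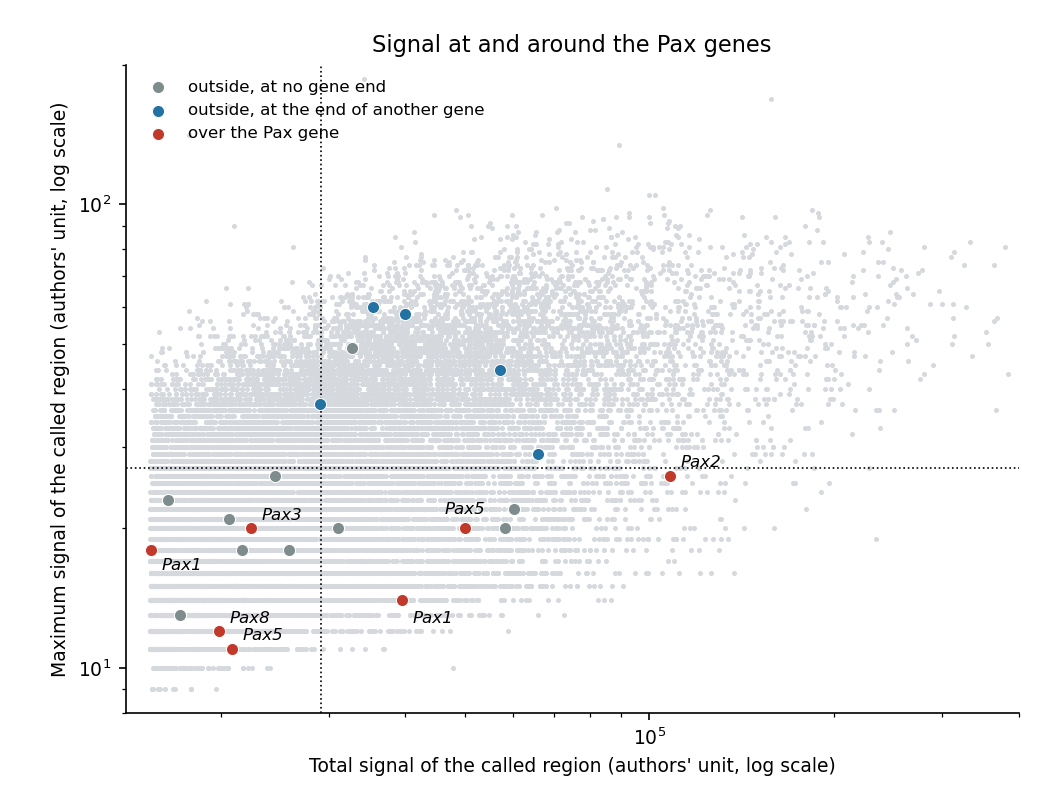
Total against maximum signal, both on log scales, for all called regions of the list (grey dots; 9 of 19215 fall outside the axes) and for those within 100 kb of a Pax gene (coloured). Dotted lines are the list medians, 29082 and 27. All red points, those over Pax genes, sit under the median maximum, with Pax2 far to the right.

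Most CpG-rich start sites of the list lay under an interval, and most of those of Pax genes did not. The CpG ratio is the observed over the expected number of CpG dinucleotides in the 300 bases from 250 before to 50 after the site. Over 21263 start sites of coding genes the share under an interval was 6.3% at ratios under 0.2 and rose to 83.9% at ratios of 1 or more. At 0.6 or more it was 73.9%, and below that 17.1%. The 10 Pax sites had ratios of 0.29 (Pax8) to 0.998 (Pax6, second site), with a median of 0.69 against 0.57 over all sites. Of the 7 Pax sites at 0.6 or more, 2 were under an interval, and both are sites of Pax2 under the same interval. Counted by gene, 1 of 5 Pax genes with such a site had it covered, against 73.6% of 8896 coding genes. The uncovered CpG-rich sites were those of Pax1 (ratio 0.64), Pax5 (0.88), both of Pax6 (0.70 and 0.998) and Pax9 (0.68). CpG-rich here means the ratio alone. The share of G and C was 46.3% at the second Pax6 site and 47% at Pax9, under the median of 56.3% over all sites. It was 57.3% at Pax1, 59% at Pax5 and 58.7% at the first Pax6 site. The uncovered Pax7 site, with 63.7%, had a ratio of 0.58 and so fell just under 0.6. The covered sites of Pax2 had ratios of 0.81 and 0.79, between that of the uncovered Pax5 site and that of the first Pax6 site.

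**Figure D3:**
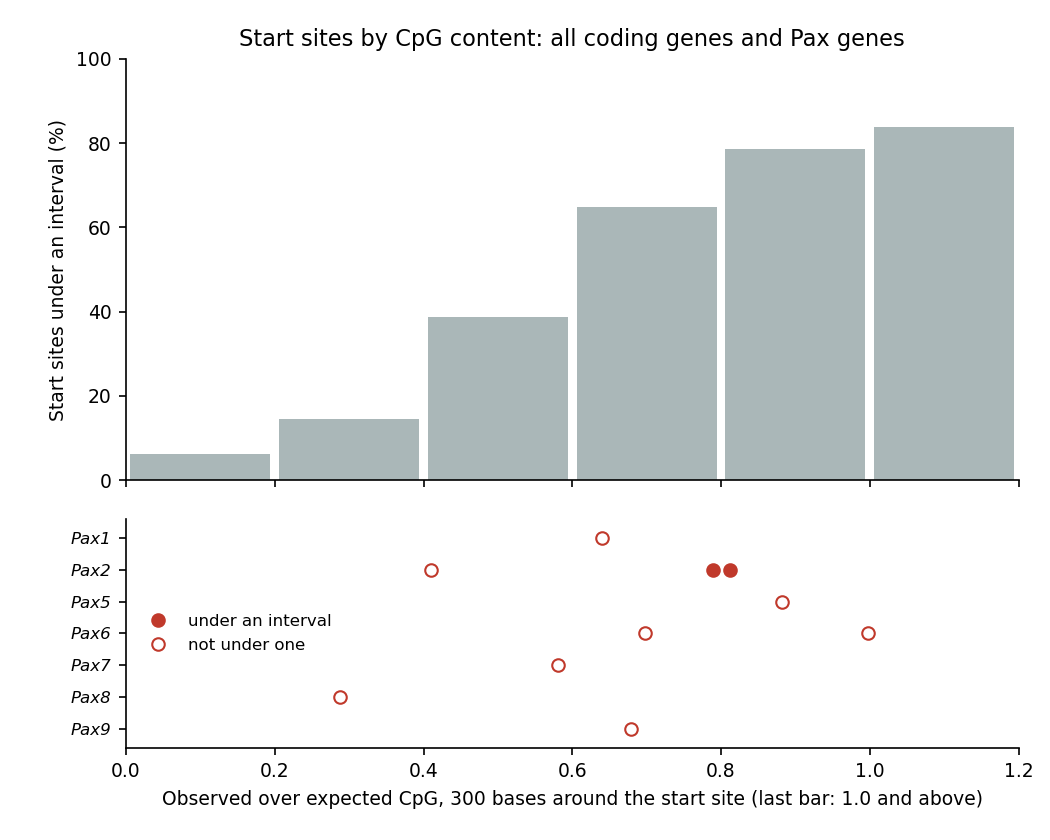
Upper panel: percent of all 21263 coding-gene start sites under an interval, by observed over expected CpG, rising from 6.3% to 83.9%. Lower panel: the 10 Pax start sites at their own CpG ratio, filled where under an interval, which holds for the second and the third site of Pax2.

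Short motifs were counted in the same 300 bases on both strands; none of the motifs contains another. The GC box GGGCGG, bound by Sp1 factors, was in 6 of 10 Pax windows and in 46.2% of all windows. It was present at both covered Pax2 sites, with its first base at -28 and -64 from the start, and also at uncovered sites of Pax1, Pax5, Pax7 and Pax8. The CCAAT box CCAAT was in 3 of 10, at Pax1, Pax6 and Pax8, and in 38.2% of all windows. The cyclic AMP response element TGACGTCA was in the first Pax6 window alone, and in 2.23% of all. The letters TATAAA and the AP-1 letters TGANTCA were in 0 of 10 Pax windows, against 12.6% and 6.99% of all. These matches describe letters in the window only.

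The surroundings of the members differed widely in how many intervals they held. In the gene and 5 Mb to either side there were 25.1 intervals per Mb around Pax8, 20.1 around Pax2, 19.2 around Pax1, 13.9 around Pax5 and 11.1 around Pax3. The density was 5.15 around Pax7, 5.1 around Pax4, 4.09 around Pax9 and 1.3 around Pax6, where the median over 20665 autosomal genes was 9.47. The 3 members with no interval within 100 kb were thus among the 4 in the sparsest surroundings, and Pax8, with the most, was in the densest. The density counts the gene and its 100 kb flanks too, so it is not independent of the count within 100 kb. Pax1, Pax6 and Pax8 share chromosome 2, where 51.0% of genes had an interval at an end. Of the coding genes within 5 Mb, 114 of 159 had one around Pax8 (71.7%), 56 of 92 around Pax1 (60.9%) and 12 of 57 around Pax6 (21.1%). Pax6 lay in a stretch of 4.52 Mb without an interval that held 13 whole coding genes, the 30th longest of 21605 such gaps on the autosomes. Pax7 and Pax9 lay in gaps of 1.08 and 1.07 Mb, at ranks 395 and 398. The part of the surroundings in the low count at Pax genes was not tested, and copy number and depth along the chromosomes of this line are unknown.

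**Figure D4:**
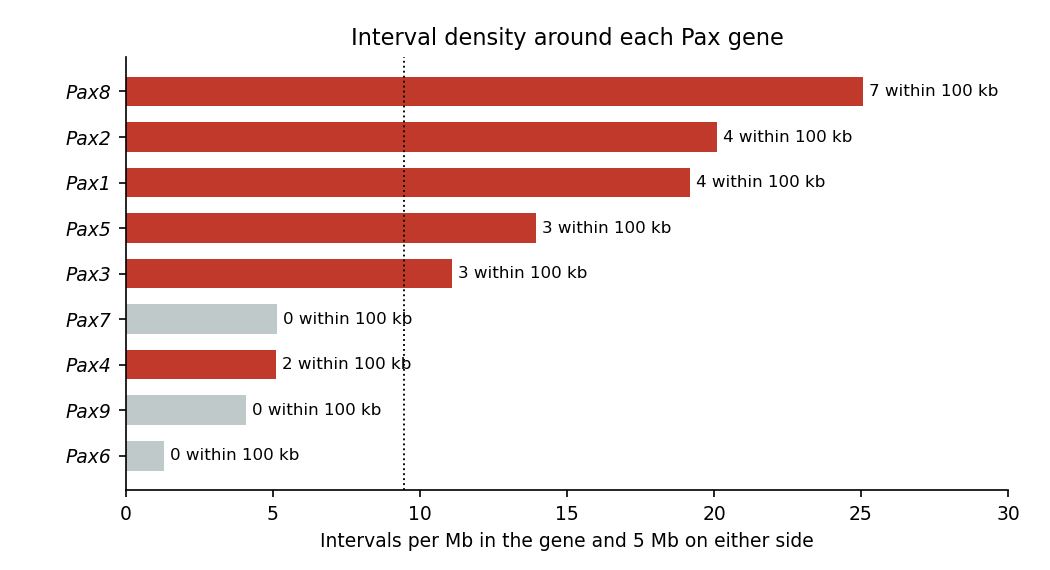
Intervals per Mb in each Pax gene and 5 Mb on either side (bars from 0; red, at least 1 interval within 100 kb; grey, none), with the number within 100 kb beside each bar. The dotted line is the median over autosomal coding genes, 9.47. Pax6, Pax9 and Pax7 (grey) lie at 1.3, 4.09 and 5.15.

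Pax factors act in an organ-forming network with homeobox factors such as Six2 to Six6, their coactivators Eya1 to Eya4, which are phosphatases, and the corepressors Dach1 and Dach2. Of 11 of these genes, 6 had an interval within 1 kb of a gene end, against 47.4% of all coding genes. Among the homeobox genes, Six5 (total signal 60306, maximum 43), Six4 (48177 and 29) and Six3 (23379 and 23) had one, and Six2 and Six6 had none. Among the Eya genes, Eya4 (34036 and 25), Eya3 (24689 and 39) and Eya1 (23168 and 33) had one. Eya2 had 7 intervals over the gene and none at an end. Dach1 and Dach2 had no interval within 100 kb. Counted within 1 kb of a RefSeq start site instead, Six4, Six5, Eya3 and Eya4 remained, 4 of the 9 with such a site, against 46.9% of coding genes with one.

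Cofactors of Pax proteins had an interval at a gene end in 14 of 15, against 47.4% of all coding genes. Within 1 kb of a RefSeq start site it was 12 of 13, against 46.9% of coding genes with such a site. The list held Paxip1, which links Pax2 to an H3 lysine 4 methyltransferase complex, members of that complex, the Groucho corepressors and others. The highest total signals were at Tle2 and Tle5, which share 1 interval (236358, maximum 70), Daxx, a histone H3.3 chaperone (181401 and 59), and Tle1 (131422 and 81). Kmt2d, an H3 lysine 4 methyltransferase, was the exception by gene end, yet it had 3 intervals over the gene and one within 1 kb of a start site.

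Known targets of Pax factors and the paired-like homeobox genes, which share the type of homeodomain but lack a paired domain, stood lower. The share of all coding genes, to be set beside both lists, was 47.4%. Of 27 targets 9 had an interval at a gene end (33.3%). Slc5a5, the thyroid iodide transporter (89471, maximum 51), Cd79a, a B cell receptor subunit (34992 and 47), Lef1, a Wnt pathway factor (30379 and 30), and Osr2, a palate factor (29522 and 46), had the highest totals. The interval at Cd79a lay beside the gene and not over it. The alphabetically first members without one were Blnk, Bmp4 and Cryaa. Of 28 paired-like genes 9 had one (32.1%), with the highest totals at Vsx1 (103584 and 31), Prrx1, a mesenchymal factor (52258 and 20), Pitx3 (51055 and 33) and Prrx2 (41362 and 26). That interval at Vsx1 lay beside the gene and did not hold the maximum of its called region, and another at the opposite end lay over the gene. Alx1 and Alx4 were among those without one. Pax genes, at 1 of 9, had a lower share than each of these lists; the differences were not tested.

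**Figure D5:**
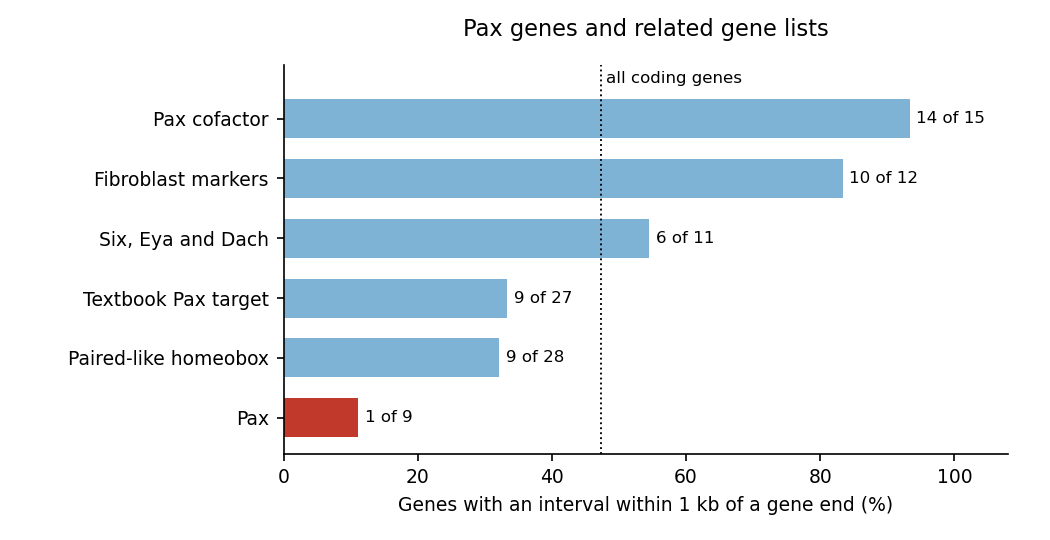
Percent of genes in each list with an interval within 1 kb of a gene end (bars from 0), with counts beside the bars. The dotted line is the share of all coding genes, 47.4%. Pax genes stand at 1 of 9 and Pax cofactors at 14 of 15.

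The labelled cell type was checked on markers. Of 12 fibroblast markers 10 had an interval at a gene end, against 47.4% of all coding genes, with Thy1 and Pdgfra as the exceptions. Yet Pdgfra had 2 intervals inside the gene, and an interval lay within 1 kb of a start site of Pdgfra. Of 35 markers of 6 cell types in which Pax genes are known to act, 7 had one: 2 of 5 for B cells, 2 of 6 each for lens and retina and for melanocytes and neural crest, 1 of 6 for kidney and thyroid epithelium, and 0 of 6 each for skeletal muscle and pancreatic islet. The 2 of 5 for B cells was near the share of all coding genes.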

How the data were processed

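Per the labels' protocols, ATAC-seq was made on whole cells in 6 samples. The submitters' processing notes name Bowtie2 2.2.9, deepTools, SEACR and mm10, without order or settings. Not given in the sources used here are the calling threshold, any control, duplicate handling and read shift. Whether and how the 2 knockout replicates were joined is not given either, and the depth is unknown. The deposited list of 21835 intervals has 6 columns and no header. The fourth was read as the total signal, a score in the authors' unit as deposited, and the fifth as the maximum signal, deposited without a stated normalization. Intervals that repeat the same values are pieces of 1 called region (19215 regions), and 15.1% of intervals have a total above their width times their maximum, so they are parts of wider regions. In addition, 18.3% of intervals do not touch the stretch of their own maximum signal, which can lie in another piece. Parts of called regions are thus absent from the list, and the reason is not given. A place under no interval can therefore lie in a called region.

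Genes and start sites came from RefSeq tables on GRCm38.p6, and an overlap of 1 bp counted. A percentile is the percent of called regions with a lower value. All 128 entries used of the other lists matched, 1 by a synonym; some genes that the lists first held are not reported here. Members and lists were chosen with earlier results of these data known, so no test was made. The rule for named genes took all Pax genes and those of the Six2 to Six6, Eya and Dach list, the 4 highest totals and up to the first 3 without an interval of the other lists, and coding genes beside Pax genes. The CpG analysis was chosen after the data were seen. Python 3.11.15, numpy 2.4.6, pandas 2.3.3 and matplotlib 3.10.9 were used, and the lookup was checked against a plain loop (0 differences in 1200).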

Additional observations from a re-analysis of the deposited data

How the results depend on the processing

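Of 58 alternatives over 10 results, 47 gave a value within 1.5 times the main one, among them all those with gene-end windows of 500 and 2500 bp or an overlap of 200 bp. Limited to intervals above the median total signal, 3 Pax genes had one over the gene (5 with all), 11 intervals lay within 100 kb of a Pax gene (23 with all), and 3 of the Six2 to Six6, Eya and Dach genes (6 with all) and 4 of the targets (9 with all) had one at a gene end. Above the upper quartile these were 2 Pax genes, 6 intervals, 2 of those network genes and 1 target, with 0 Pax genes and 3 paired-like genes at a gene end; the share of all coding genes also fell, to 32.7% and 19.6% at a gene end and to 35.6% and 21.1% over the gene, so the counts of Pax genes over the gene stood near it at both settings. A distance of 200 kb gave 38 intervals and 8 Pax genes. The share of all coding genes was not counted at that distance, so these counts stand without a comparison. Counts within 1 kb of a RefSeq start site, an alternative added after the data were seen, stayed within 1.5 times of those at gene ends. They are of fewer genes, since not all have such a site. For Pax genes the gene also changed, from Pax1 (1 of 9) to Pax2 (1 of 7), so the equal count does not show a stable result. The targets had 8 of 20 and the paired-like genes 6 of 18, against 46.9% of coding genes with such a site. The medians over Pax genes stayed within 1.5 times under each alternative run. Settings above the median and quartile leave fewer intervals by construction. No paired analysis was possible because the list holds 1 group and no value per replicate.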

Other observations

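Several intervals near Pax genes lay over long non-coding RNA genes, found by their coordinates after the values were seen. Both intervals below Pax1 lay inside Nkx2-2os (147184083 to 147331681 on chromosome 2), and the upper of them also touched Gm14110. The interval at the lower end of Pax1 overlapped AI646519 (147361541 to 147362793). The interval of lowest maximum in Pax5 lay over Gm12462 (44681211 to 44685904 on chromosome 4), and the one 86.4 kb above Pax8 lay over Gm39769.

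Of the 7 intervals over Pax genes, 3 have a total signal above their width times their maximum, so the called region must have been wider than the deposited interval. For the lower interval of Pax1 (2010 bp) the smallest width that gives its total is 2822 bp. For those of Pax5 it is 2503 bp (1657 bp deposited) and 1893 bp (1481 bp deposited). The interval of Pax2 (5177 bp) needs no wider region.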
